A study of Mus musculus with 3 samples.

Results

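The genes described here encode the proteins that neutrophils pack into their granules: Elane, Mpo, Prtn3 and Ctsg of the primary granules, and Ltf, Camp, Ngp, Fcnb, Lcn2 and Cd177, grouped here as specific granule genes. They were chosen by symbol, and all 10 were found among the 32285 gene features of the series. Single-cell transcriptomes (10x Genomics 3′ chemistry, counted as unique molecular identifiers, UMIs; levels are CPM, the UMIs of a gene in a sum of cells as counts per 1e6 of all UMIs of that sum) came from brainstem of B6(Cg)-Tyrc-2J/J mice. The 2 tumour libraries came from untreated mice injected in the brainstem at 6 weeks of age with 100000 cells of DIPG4423, a murine diffuse midline glioma (DMG) line, and taken 3 weeks later. The 1 normal library came from brainstem without a tumour, also untreated, of a mouse whose age the labels do not give. The labels describe saline perfusion, grinding of the tissue, bead depletion of myelin and lysis of red cells for all 3 libraries. The titles number the tumour-bearing mice, and nothing else states how the libraries relate, so p-values reflect only how far these libraries differ among themselves, which may be technical. DIPG4423 is a single cell line, and with 1 normal library the variation between normal mice is not measured.

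Neutrophils form in the bone marrow from myeloid precursors and make their granule proteins in waves. Promyelocytes fill the primary (azurophil) granules with myeloperoxidase and serine proteases, myelocytes and metamyelocytes fill the specific granules with lactoferrin, cathelicidin and lipocalin, and gelatinase granules and secretory vesicles come last. Circulating neutrophils carry the finished proteins but have largely stopped transcribing the genes, so granule transcripts mark the age of a neutrophil more than its protein content. A healthy brain parenchyma holds few neutrophils, whereas the skull and its marrow lie next to it.

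Among the primary genes, Elane encodes neutrophil elastase, Prtn3 proteinase 3 and Ctsg cathepsin G, all serine proteases, and Mpo encodes the peroxidase that makes hypochlorous acid. Ltf encodes the iron binder lactoferrin, Camp the cathelicidin precursor, Ngp a cystatin-like neutrophilic granule protein, Fcnb a ficolin that recognises microbial sugars, Lcn2 lipocalin 2, which binds bacterial siderophores, and Cd177 a surface glycoprotein of neutrophils. On GRCm38, Prtn3 (chr10:79874476-79883174) and Elane (chr10:79886247-79888215) are neighbours on the plus strand. Camp (chr9:109847379-109849617, minus), Ngp (chr9:110419747-110423012, plus) and Ltf (chr9:111019271-111042767, plus) lie on one arm of chromosome 9. Fcnb (chr2:28076378-28084885) and Lcn2 (chr2:32384633-32388252) lie on the minus strand of chromosome 2. The others stand alone: Mpo at chr11:87793581-87804413 (plus), Ctsg at chr14:56099881-56102574 (minus) and Cd177 at chr7:24743983-24760311 (minus). Prtn3 overlaps Plppr3 on the other strand by 159 bases, and Mpo overlaps the antisense gene Gm11505.

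After filtering, tumour 1 held 10550 cells, tumour 2 held 9407 and the normal library 3083, from totals of 151906460, 157114723 and 15035292 UMIs. Median UMIs per kept cell were 8783.5, 11297 and 2395. The normal library stood apart in 2 ways. Of its barcodes, 26.3% exceeded the mitochondrial limit and were removed, against 9.71% and 9.57%, and markers of marrow-type lineages were high in it. Summed erythroid markers reached 806 CPM there against 43.5 and 143.5, and summed B cell markers 583 against 82.3 and 93.1. Kept cells of different libraries shared 8 to 30 barcodes per pair. How far skull marrow or blood contributed to any library was not tested.

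Granulocytic cells were clustered without the 10 genes, without 23 other granule genes and without 8 transcription factors, and were then staged from markers outside those lists. The names are rebuilt from markers and carry "-like" for that reason. Granulocyte precursor-like cells numbered 2 in tumour 1, 2 in tumour 2 and 29 in the normal library. Immature neutrophil-like cells numbered 30, 23 and 350, and mature neutrophil-like cells 224, 324 and 170. A further 64, 136 and 15 granulocytic cells stayed unstaged, nearly all of them in a Siglecf-led cluster of the tumour libraries and a small Ms4a3-led cluster of the normal one. Each staging list was highest in its own stage. The clusters were named from these same lists, so this follows from the naming and does not test it. Summed precursor markers stood at 2481, 2647 and 3538 CPM in precursor-like cells of tumour 1, tumour 2 and normal, and at 50.3 to 268 in the later stages. Monocyte markers were also present in the precursor-like cells (4158, 5304 and 7160 CPM summed), and eosinophil markers, led by Prg2, reached 2393 in those of the normal library but 0 and 20.1 in the tumour pair.

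Immature cells made up 11.4% of the normal library (95% exact Clopper-Pearson interval 10.3 to 12.5) but 0.284% (0.192 to 0.406) of tumour 1 and 0.245% (0.155 to 0.367) of tumour 2. Precursor-like cells were 0.941% of the normal library (0.631 to 1.35) against 0.0190% and 0.0213%. Mature cells made up 2.12% and 3.44% of the tumour libraries and 5.51% of the normal one. Such shares also depend on the other cells of a library, among them 4360 and 2099 glial progenitor-like cells in the tumour pair. In edgeR's quasi-likelihood test on numbers of cells over 19 classes, immature cells were lower in tumour by -5.42 ± 1.06 (log2 ± SE, adjusted p = 0.00369) and precursor-like cells by -5.44 ± 1.17 (adjusted p = 0.00371). The difference for mature cells, -0.99 ± 1.00, did not pass (adjusted p = 0.436). With the stricter cell filter it turned to 5.03 and passed in edgeR (adjusted p = 0.0133), since 177 and 300 tumour cells but 2 normal cells then carried the name. With the main cell filter, 42.1% of the 19 classes passed as lower in tumour and 10.5% as higher.

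The 4 primary genes were at their highest in precursor-like cells of every library. Elane stood at 5256 CPM in the 29 normal precursor-like cells, at 134 in immature cells and at 5.29 in mature cells of the same library. In the tumour libraries Elane was at 1465 (62 UMIs) and 3422 (340 UMIs) in the 2 precursor-like cells of each, had 0 UMIs in immature cells, and 1 and 2 UMIs in mature cells. Elane was thus lower in each later stage of the normal library, and the tumour immature cells held none that could be seen at this depth. Mpo was at 3308, 2436 and 4885 CPM in precursor-like cells of tumour 1, tumour 2 and normal, against 0, 0 and 42.4 in immature cells. Prtn3 was at 4702, 3452 and 5639 in precursor-like cells and at 0, 8.80 and 107 in immature cells. Ctsg was at 4466, 2013 and 1991 in precursor-like cells, at 0, 0 and 3.67 in immature cells and at 0 UMIs in the mature cells of every library. The floor of 3 counts in mature cells corresponds to 5.93, 3.78 and 7.93 CPM, so lower Ctsg levels would not have been seen. The order of these stages is a description, since the stages are clusters of the same cells.

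Of the 6 specific genes, 6 were highest in immature cells of tumour 1, 6 in those of tumour 2 and 5 in those of the normal library, where Fcnb was the exception. Camp stood at 31379, 32799 and 26093 CPM in immature cells of tumour 1, tumour 2 and normal, against 1610, 7.55 and 444 in mature cells. Ngp stood at 38563, 41814 and 35387 in immature cells and at 2377, 98.2 and 1426 in mature cells. Ltf stood at 7083, 6745 and 9946 against 380, 1.26 and 111. All 3 genes were far lower in mature than in immature cells of every library, and tumour 2 had the lowest mature level of each. Lcn2 differed less between the stages: it stood at 16490, 15315 and 10624 in immature cells and kept 3460, 2253 and 2677 in mature cells. After thinning to 1000 UMIs per cell, Lcn2 was still found in 75.5%, 63.5% and 72.2% of mature cells, and Camp in 2.83%, 0.629% and 19.6%. Unthinned, the shares were 85.3%, 74.1% and 73.5% for Lcn2 and 3.12%, 1.23% and 25.9% for Camp, and thinning left out 12, 6 and 12 cells. Cd177 stood at 1048, 1056 and 878 in immature cells and at 223, 68.0 and 304 in mature cells.

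Fcnb differed from the other specific genes by stage in the normal library alone. It stood at 981 CPM in normal precursor-like cells, at 686 in normal immature cells and at 0 UMIs in normal mature cells. Of the 349 Fcnb UMIs in normal precursor-like cells, 314 lay in a cluster of 13 cells. In the tumour libraries Fcnb was at 144 and 229 in immature cells and at 23.6 (1 UMI) and 0 in precursor-like cells. In tumour 2, 34 of its 87 Fcnb UMIs lay in 1 cell, which the clustering left unstaged.

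**Figure D1:**
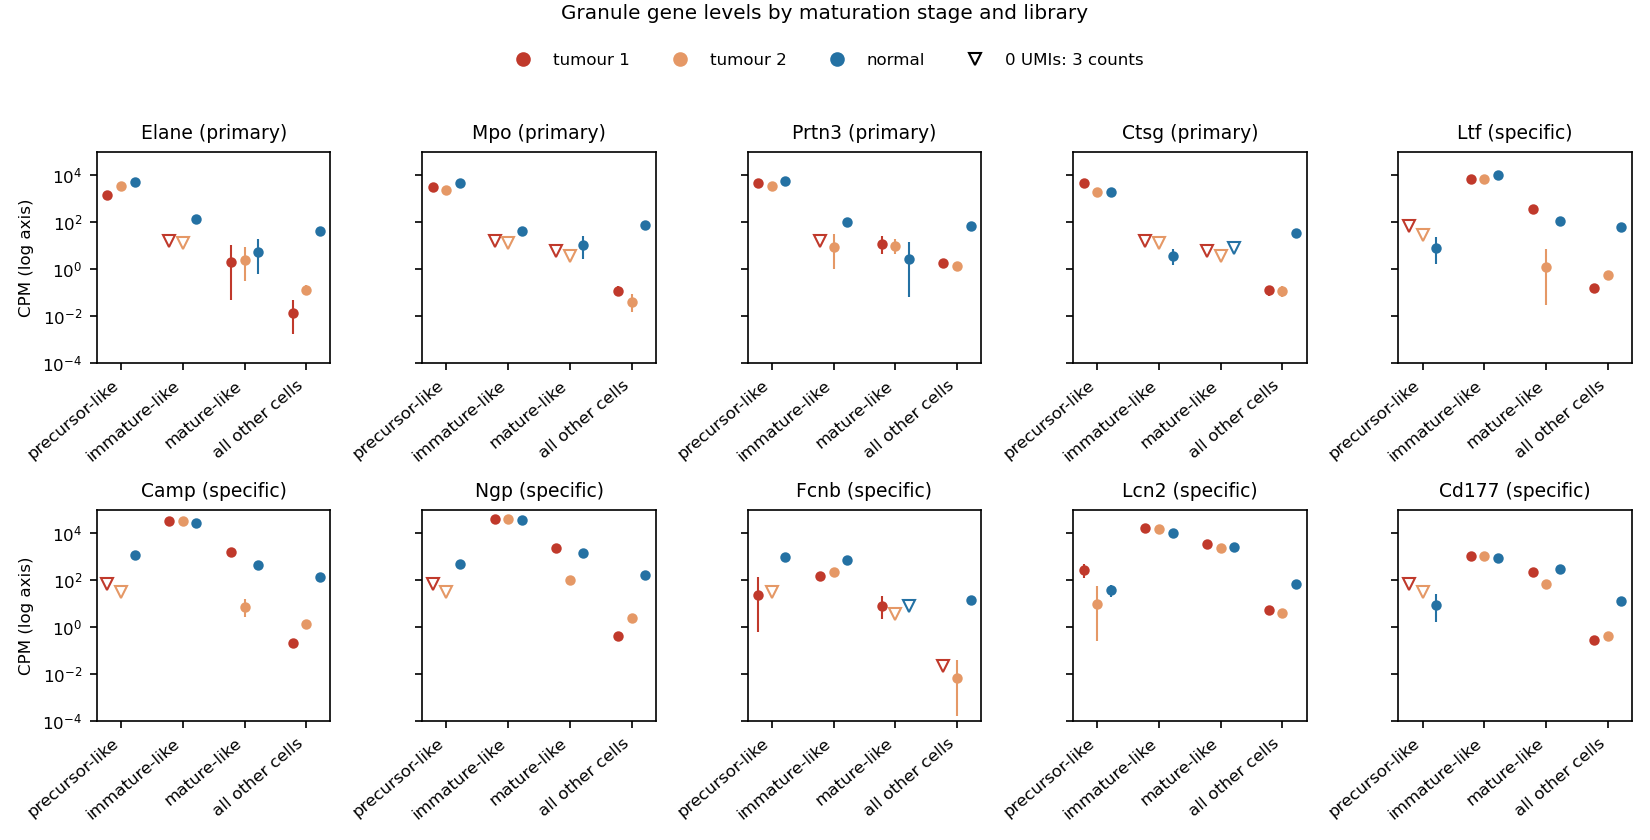
CPM (log axis) of each of the 10 genes in precursor-like, immature-like and mature-like cells and in all other cells, 1 point per library with its exact Poisson 95% interval, which covers counting error only; open triangles mark 0 UMIs and sit at the floor of 3 counts. The upper left panels (primary genes) start high in precursor-like cells, for example Elane at 5256 in the normal library, while Camp and Ngp peak in immature-like cells at 26093 to 41814.

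The normal library held enough granulocytic cells to follow the genes through 7 clusters. They were ordered by a score of mature neutrophil markers that uses none of the granule genes. The scores of the first 4 clusters lay close together, from 0.0127 to 0.0286. The precursor marker score was higher in the second cluster (0.5046) than in the first (0.4915), so the order of the early clusters is not settled. The first also had an eosinophil marker score of 0.320, and whether it is an earlier step of the same lineage was not tested. In the first cluster (16 precursor-like cells, led by Prg2 and Ms4a3) Elane was at 4226, Mpo at 4915, Prtn3 at 4318 and Ctsg at 2097 CPM, while Fcnb was at 161, Ngp at 36.8, Lcn2 at 32.2, Camp at 18.4, Ltf at 9.20 and Cd177 at 0 UMIs. UMIs of specific genes were thus found at low levels, with Fcnb and Ngp each in 31.2% of the 16 cells and Camp in 25%. Fcnb was above its level in the non-granulocytic cells of the same library (13.8 CPM), which include monocyte-like cells. Camp, Ngp, Ltf and Lcn2 were below their levels there (137, 165.5, 61.0 and 68.7 CPM). Whether cells of the first cluster made these transcripts themselves was not tested. In the second cluster (13 precursor-like cells) Elane was at 6880 and Prtn3 at 7720, and Fcnb (2274), Camp (2969) and Ngp (1202) were higher than in the first cluster, with Ltf still at 7.24 and Lcn2 at 43.4. The third cluster (15 unstaged cells, led by Ms4a3 and Nkg7) held both sets: Elane was at 2869 and Camp at 35096, and Ltf (2447) and Lcn2 (4821) were now present. Ctsg, at 401, was already below its level in the precursor-like clusters.

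In the fourth cluster, 67 cycling immature cells led by histone genes and Top2a, Elane was at 340 and Ctsg at 9.48 CPM, while Ngp was at 37062 and Ltf at 7460. The primary genes came from a minority of its cells, with Elane found in 14.9% of them and Prtn3 in 25.4%. The fifth cluster (197 immature cells led by Ly6g) had the highest Ltf (13187), Ngp (39704), Lcn2 (12748) and Cd177 (1024) of the 7, and 4 Elane UMIs in all. Camp was already past its highest level there, at 24978, and Fcnb was at 183. In the sixth cluster (86 immature cells led by Thbs1) Camp was at 7853 and Fcnb at 0 UMIs, and in the seventh (159 mature cells led by Ddx60 and Il1f9) Camp was at 471, Ngp at 1517 and Lcn2 at 2776. Mpo and Ctsg were thus highest in the first cluster, Elane and Prtn3 in the second, and Fcnb and Camp in the third. Ltf, Ngp, Lcn2 and Cd177 were highest in the fifth. Read as a sequence, the early part of this depends on the closely spaced scores given above. These are 1 library's clusters, as small as 13 cells, and neighbouring levels, such as Mpo at 4915 and 4838 in the first pair or Camp at 35096 and 34309 in the third cluster and the fourth, are not separated by a test.

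**Figure D2:**
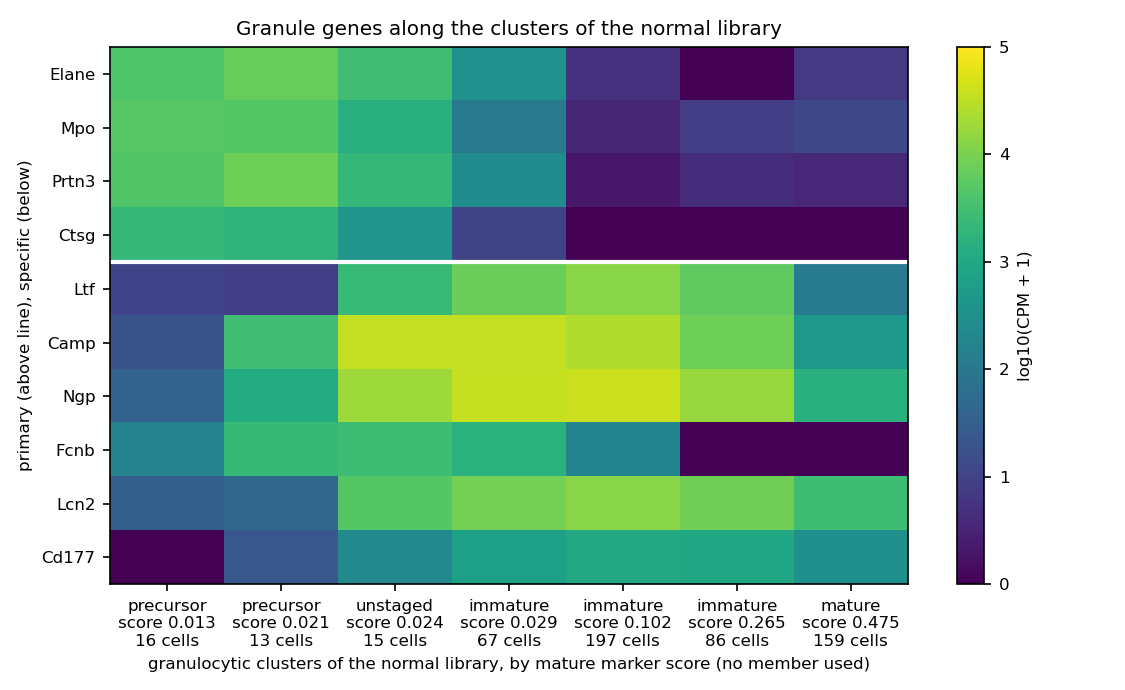
Levels of the 10 genes, as log10(CPM + 1), in 7 granulocytic clusters of the normal library, ordered from left to right by a mature marker score that uses none of the genes; the white line parts primary from specific genes. The bright area moves from the upper left to the lower middle, with Fcnb bright in the columns from the second to the fourth (2274, 2795 and 1554 CPM) and at 0 UMIs in the last 2.

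Primary and specific transcripts met in the same cells at the turn between those clusters. With every cell thinned to 1000 UMIs, 11 of 26 normal precursor-like cells (42.3%, exact interval 23.4 to 63.1) had UMIs of both groups and 14 had primary UMIs alone, 1 had neither, and 3 shallower cells were left out. Of the 15 unstaged normal cells, 11 (73.3%, 44.9 to 92.2) had both. Among 339 normal immature cells, 12 (3.54%, 1.84 to 6.102) had both and the other 327 had specific UMIs alone. In the tumour libraries 0 of 30 and 0 of 23 immature cells had both, which allows shares of up to 10% and 13.04% by the floor of 3 cells. The tumour precursor-like cells, 2 in each library, all had primary UMIs alone. The share of normal immature cells with both is within what these tumour counts allow, so a difference could not be seen at these numbers of cells.

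**Figure D3:**
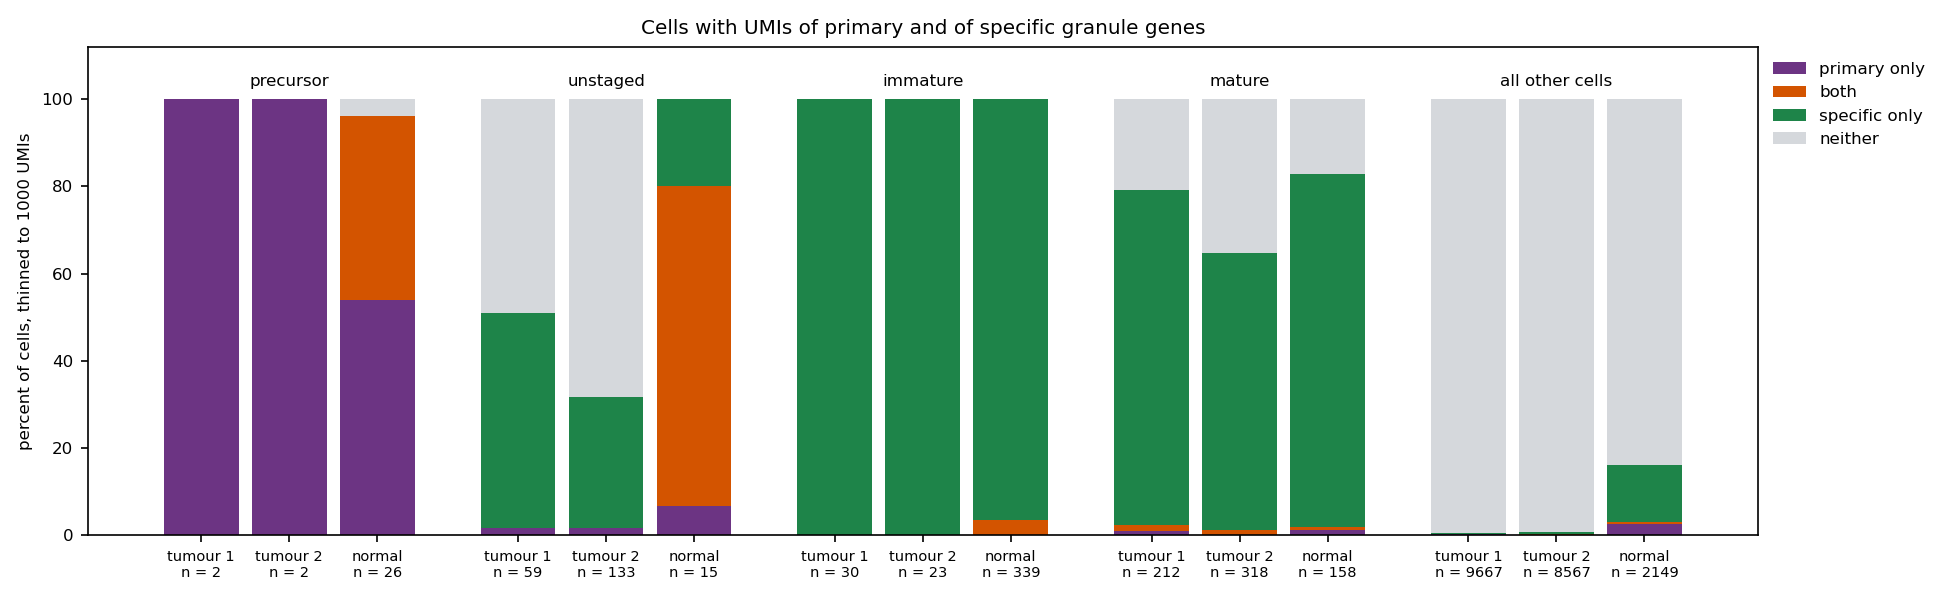
Percent of cells, each thinned to 1000 UMIs, with UMIs of primary genes only, of both groups, of specific genes only or of neither, by stage and library, with the number of cells used (n) under each bar. Both groups are found together mainly in the normal library, in 42.3% of precursor-like and 73.3% of unstaged cells, while specific-only cells fill the immature bars.

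The stretches just upstream of the genes can be set beside these levels, although members of a group were highest in different clusters. RefSeq promoters (GRCm38.p6), 250 bases before to 50 after each start, were found for all 10 genes and searched on both strands for 3 motifs of factors known for granulocyte development: TTNCNNAA (C/EBP family), GAGGAA (PU.1) and TGTGGT (RUNX). The C/EBP motif was found in 5 of 6 specific promoters (Ltf, Ngp, Fcnb, Lcn2 and Cd177, not Camp) and in 0 of 4 primary ones, and in 40.7% of all 32851 promoters of the table. The PU.1 motif was found in 4 of 4 primary and 3 of 6 specific promoters, and in 28.3% of all, and the RUNX motif in Ctsg and Ltf and in 16.8% of all. Shown here are the neighbouring primary genes Elane (chr10:79886062-79886361, plus) and Prtn3 (chr10:79879417-79879716, plus), which share the PU.1 letters at nearly the same distance from their starts, and the specific genes Ltf (chr9:111019042-111019341, plus) and Ngp (chr9:110419558-110419857, plus), which carry C/EBP letters. They are written 5′ to 3′, with matches in capitals on either strand. In Elane and Prtn3 the capitals are the PU.1 motif at -85 and -95. In Ltf they are C/EBP at -217 and -75, PU.1 at -157 and RUNX at 26, and in Ngp C/EBP at -138, -102 and -11.
Elane: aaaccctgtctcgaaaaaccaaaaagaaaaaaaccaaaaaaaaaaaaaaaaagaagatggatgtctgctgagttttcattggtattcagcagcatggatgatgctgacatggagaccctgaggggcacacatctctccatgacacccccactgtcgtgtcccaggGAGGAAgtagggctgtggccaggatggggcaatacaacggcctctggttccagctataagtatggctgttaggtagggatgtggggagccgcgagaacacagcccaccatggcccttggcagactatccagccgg
Prtn3: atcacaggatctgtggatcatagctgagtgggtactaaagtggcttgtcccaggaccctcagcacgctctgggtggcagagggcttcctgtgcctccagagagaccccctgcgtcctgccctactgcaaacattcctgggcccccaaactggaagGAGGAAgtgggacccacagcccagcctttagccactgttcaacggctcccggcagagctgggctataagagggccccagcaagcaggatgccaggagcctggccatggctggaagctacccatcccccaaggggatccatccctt
Ltf: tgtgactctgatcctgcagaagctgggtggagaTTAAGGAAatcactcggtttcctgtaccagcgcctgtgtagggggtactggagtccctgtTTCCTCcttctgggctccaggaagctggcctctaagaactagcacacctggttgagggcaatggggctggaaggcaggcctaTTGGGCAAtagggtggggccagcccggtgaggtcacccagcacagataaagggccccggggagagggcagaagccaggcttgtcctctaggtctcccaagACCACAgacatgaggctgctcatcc
Ngp: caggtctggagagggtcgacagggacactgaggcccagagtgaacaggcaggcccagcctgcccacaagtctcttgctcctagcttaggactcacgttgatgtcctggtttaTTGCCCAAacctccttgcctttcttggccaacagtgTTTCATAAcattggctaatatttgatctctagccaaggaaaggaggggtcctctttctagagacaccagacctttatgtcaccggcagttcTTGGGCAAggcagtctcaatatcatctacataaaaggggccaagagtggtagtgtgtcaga
A match of letters is a description of these windows and does not show that a factor binds there. The RefSeq start of Prtn3 lies inside the longer gene span given above.

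Tumour-bearing and normal brainstem were first compared on UMIs summed over all kept cells. All 10 genes were lower in tumour in that sum. Elane had 0.462 (tumour 1) and 2.49 CPM (tumour 2) beside 248 for the normal library, and Mpo at 1.12 and 1.70 against 235. Camp was at 48.0 and 58.8 against 4957, Ngp at 60.6 and 74.0 against 6448, and Lcn2 at 40.8 and 43.6 against 2018. Both tumour libraries lay far below the normal one for each gene. In edgeR's test 10 of 10 genes passed as lower in tumour (adjusted p 0.00701 to 0.0149), where 8.36% of 20449 genes did, and 0 as higher, where 13.1% did. Their log2 differences ran from -8.22 ± 0.65 for Fcnb to -5.02 ± 0.33 for Lcn2, with a median of -6.00 beside 0.14 over all genes. Single tumour libraries moved some of them: Fcnb was at -7.73 without tumour 1 and -9.16 without tumour 2, and Elane (-6.79 ± 0.98) at -6.09 and -8.57. In such a sum, fewer granulocytic cells, less RNA per cell and more UMIs from other cells cannot be told apart. The sums held 140556302 and 145962330 UMIs in the tumour libraries and 11068572 in the normal one. The numbers of immature and precursor-like cells above differed in the same direction as the genes.

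Within the staged granulocytic cells alone the differences were smaller. Camp had levels of 9118 (tumour 1) and 6656 CPM (tumour 2), less than the 19070 of the normal library. Fcnb stood at 43.5 and 46.4 against 628, and Ctsg at 257 and 178 against 271. edgeR called 9 of 10 genes lower in tumour, beside 7.6% of 8976 genes, and 0 higher, beside 8.38%, with a median of -1.80 beside 0.02 over all genes. Fcnb had the largest difference of the 10 (-4.16 ± 0.36, adjusted p = 3.93e-28), followed by Ltf (-2.44 ± 0.26), Elane (-2.38 ± 0.32) and Mpo (-2.12 ± 0.33). Ctsg did not pass in edgeR (-0.69 ± 0.34, adjusted p = 0.171). Lcn2 (-0.88 ± 0.25, adjusted p = 0.00514 in edgeR) lost its call under 6 alternatives, and Elane lost its call in DESeq2 (adjusted p = 0.57) and with RLE factors (0.102). DESeq2 called 7 of the 10 as lower, beside 110 lower and 255 higher of 8153 genes. edgeR with RLE factors called 6, when Cd177 was lost as well (adjusted p = 0.0929), beside 133 lower and 173 higher of 8976. Without tumour 1 the Elane difference was -1.74 and without tumour 2 it was -3.61. These sums mix the stages: mature cells made up 70.0% and 66.8% of the tumour granulocytic cells and 30.1% of the normal ones. The fit took the prior degrees of freedom as infinite, so its small p-values rest on a spread pooled over genes.

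In immature cells 4 of the 6 specific genes did not pass the test. Camp (0.19 ± 0.16), Ngp (0.08 ± 0.16) and Cd177 (0.15 ± 0.25) did not pass edgeR's test (adjusted p 0.549, 0.831 and 0.784), and Lcn2 was at 0.47 ± 0.18 with adjusted p = 0.0829. The tumour levels of these 4 genes all lay above the normal one. Lcn2 passed edgeR as higher with library sizes alone (0.57, adjusted p = 0.0269) and with RLE factors (0.49, adjusted p = 0.0399). Ltf was lower in tumour (-0.63 ± 0.19, adjusted p = 0.0166) and Fcnb was lower (-1.97 ± 0.28, adjusted p = 1.27e-09), both with the tumour pair below the normal library. The Ltf call was lost in DESeq2 (adjusted p = 0.119), with library sizes alone (0.0617), with equal depth (0.0727) and with doublets kept (0.0765). Elane and Prtn3 passed as lower too. With 0 and 2 tumour UMIs in all, they met the low-count filter through the normal library alone, so a higher call was not open to them. Elane had 0 and 0 UMIs in the tumour immature cells against 255 in the normal ones. Against a floor of 3 counts over both tumour libraries, that is at least 18.5-fold lower by UMIs. Prtn3 had 2 UMIs against 204, which is 22.2-fold lower by level (exact counting limits 6.06 and 184). Mpo, with 0 against 81, was at least 5.87-fold lower without being tested, since the low-count filter removed Mpo and Ctsg. The normal UMIs of Elane, Prtn3 and Mpo lay in 14, 19 and 12 of 350 cells. The folds and limits treat UMIs as independent. For UMIs gathered in few cells the limits are too narrow, and the least folds may be too high. Elane was found in 4% of normal immature cells. The exact limits for 0 of 30 and 0 of 23 tumour cells reach 11.6% and 14.8%, so a difference in share could not be seen. Of the 8 genes tested, 4 were called lower, beside 4.11% of 3111 genes, and 0 higher, beside 4.6%. Elane and Prtn3, for which only a lower call was open, are among those 4. The median of the 8 was -0.28 beside 0.001 over all genes. It includes Elane and Prtn3, and the 6 specific genes alone had a median of 0.12. Here too the prior degrees of freedom were infinite.

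Most UMIs of the genes called lowest in immature cells lay in the cycling cluster. That cluster held 67 of the 350 normal immature cells, and 3 of 30 and 5 of 23 in the tumour libraries. It carried 251 of the 255 Elane UMIs, 202 of the 204 Prtn3 UMIs and 1147 of the 1310 Fcnb UMIs of the normal immature cells. Within it, Fcnb was at 284 (10 UMIs, interval 136 to 522) and 520 (48 UMIs, 384 to 690) CPM in the tumour libraries against 1554 (1465 to 1646) in the normal one. Fit without that cluster, an alternative added after seeing the data, edgeR called 0 of 6 genes, beside 109 lower and 123 higher of 2225 genes. Elane and Prtn3 were no longer tested there, as the low-count filter removed them. In edgeR 2 of the 6 had an unadjusted p under 0.05, beside 534 of the 2225. Fcnb was at -1.06 (adjusted p = 0.107) and Ltf at -0.78 (adjusted p = 0.165). DESeq2 on all immature cells called 1 of 6 as lower, beside 7 lower and 20 higher of 727 genes.

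In mature cells the low-count filter removed the 4 primary genes and Fcnb. edgeR called 0 of the 5 genes tested, with 1 at an unadjusted p under 0.05, and DESeq2 called 0, beside 3.68% of 6575 genes called lower and 2.63% called higher by edgeR. Cd177 was at 223 and 68.0 CPM in the tumour libraries against 304 (-1.55 ± 0.60, adjusted p = 0.145). Lcn2 was at -0.36 ± 0.42 (adjusted p = 0.613), with its normal level between those of the tumour pair. The median of the 5 was -0.36 beside 0.14 over all genes. The tumour pair disagreed on Camp, Ngp and Ltf: 762 of the 814 Camp UMIs of tumour 1, 170 of its 192 Ltf UMIs and 761 of its 1202 Ngp UMIs lay in 2 of its 224 cells, of 20911 and 17367 UMIs in total. Without those 2 cells, chosen after their values were seen, tumour 1 would stand at 111 CPM for Camp, 47.1 for Ltf and 943 for Ngp, below the 444, 111 and 1426 of the normal library.

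With doublets kept, the clustering put those 2 cells outside the mature stage. edgeR then called 4 genes of 5 lower in mature cells, where it called 582 of all 6008 genes tested: Ltf at -4.14 (adjusted p = 1.00e-15), Camp at -3.23 (4.82e-13), Ngp at -1.96 (1.16e-05) and Cd177 at -1.83 (0.000186). Ltf and Camp thus reversed their direction between 2 treatments of doublets, and the call on specific transcripts in mature cells rests on that choice. Shares of cells do not depend on how many UMIs 1 cell holds. After thinning to 1000 UMIs, Ngp was found in 15.1% (10.6 to 20.6) and 3.77% (1.97 to 6.499) of tumour mature cells and in 31.6% (24.5 to 39.5) of normal ones, with 21.0%, 5.56% and 41.8% unthinned. The tumour shares lay below the normal share for Camp as well. Non-granulocytic cells had the same order unthinned. Camp was found in 0.303%, 0.874% and 10.0% of them (tumour 1, tumour 2, normal) and Ngp in 0.567%, 1.11% and 11.3%. How much of the mature shares such UMIs make up was not tested. Mature cells of the 2 groups fell into different clusters, 159 of the 170 normal ones into the Ddx60-led cluster that held 0 and 2 tumour cells.

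Precursor-like cells were too few in the tumour libraries for a test. The 4 cells held 25710, 16614, 52364 and 46996 UMIs. Their Elane counts were 3, 59, 47 and 293, and their Ctsg counts 88, 101, 67 and 133, so single cells differed widely in Elane. Camp and Ngp had 0 UMIs in all 4 cells, against 414 and 174 in the 29 normal cells. Against the floor of 3 counts, that is at least 55.0-fold and 23.1-fold below all 29 normal cells together. The normal UMIs lay in 11 (Camp) and 9 (Ngp) of these, and 410 and 166 of them in the second cluster, which held 0 tumour cells. All 4 tumour cells fell into the first cluster, where normal cells had 4 Camp and 8 Ngp UMIs (18.4 and 36.8 CPM). The tumour floor is 21.2 CPM, so the folds reflect the clusters compared, and within the first cluster no Camp fold can be given. These 4 cells held most of what their libraries had of 3 primary genes: 95.4% and 93.7% of the Elane UMIs, 89.2% and 97.6% of those of Mpo and 91.3% and 92.2% of those of Ctsg.

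**Figure D4:**
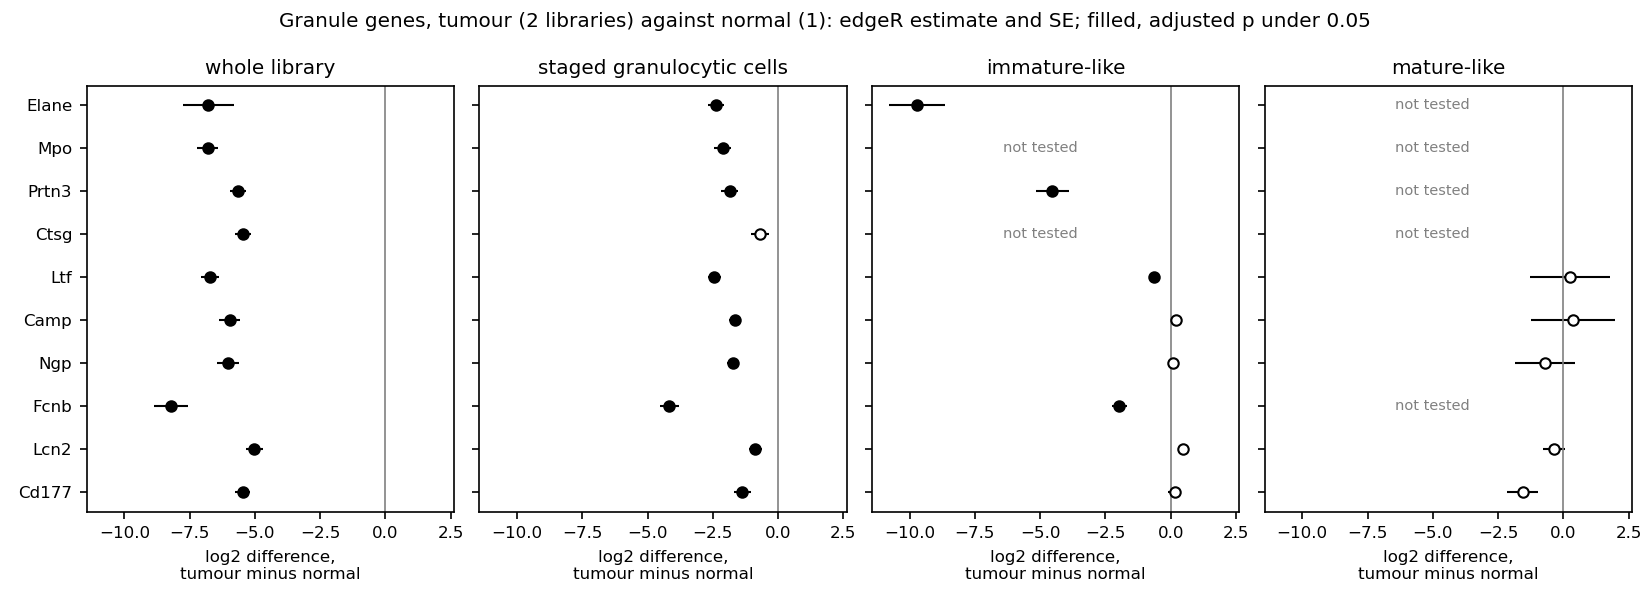
Log2 difference, tumour minus normal, with its standard error from edgeR, for each gene in sums over the whole library, the staged granulocytic cells, immature-like cells and mature-like cells; filled points have an adjusted p under 0.05, and genes removed by the low-count filter are marked as not tested. All 10 points lie left of 0 in the whole library (-8.22 to -5.02), whereas Camp and Ngp sit near 0 in immature-like cells; the Elane point there is a fit to 0 tumour UMIs and no bound, and the mature Camp and Ltf points turned negative with doublets kept.

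Prtn3 behaved differently from the other primary genes in where its UMIs lay. In tumour 1, 55.8% of its 468 UMIs, and in tumour 2, 35.7% of 571, were in cells outside the granulocytic clusters, against 3.08% and 5.51% for Elane. Glial progenitor-like cells had 175 and 55 Prtn3 UMIs in 168 of 4360 and 49 of 2099 cells, but 1 Elane UMI in each library and 0 of Ctsg. Macrophage-like cells had 44 and 75 Prtn3 UMIs against 1 and 0 for Elane, and 0 and 12 for Ctsg. In precursor-like cells the same libraries had Elane and Prtn3 at 62 against 199 and at 340 against 343 UMIs, a ratio that these classes did not keep. The levels were low, with 1.76 and 0.839 CPM for the glial progenitor-like class and 4.05 and 3.12 in macrophage-like cells. Plppr3, whose annotated span overlaps that of Prtn3 on the other strand, had levels of 23.9 (tumour 1) and 17.6 CPM (tumour 2) in the glial progenitor-like class. It was found in 84 of the 168 and 28 of the 49 cells with a Prtn3 UMI, and in 35.6% and 35.4% of all cells of the class. Its part in the Prtn3 counts was not tested.

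Beyond the staged cells the normal library showed 2 further classes with primary transcripts. The basophil or mast cell-like cluster also had a precursor marker score of 0.538, beside 0.4915 and 0.5046 in the precursor-like clusters. At clustering resolution 0.5, 13 normal cells kept that name and 57 were precursor-like, against 29 before. Its primary transcripts therefore cannot be placed outside the neutrophil lineage. Its 26 basophil or mast cell-like cells had Mpo at 1980, Ctsg at 583 and Prtn3 at 338 CPM, with Elane at 51.2 and Camp at 35.8. Its 174 monocyte-like cells had Prtn3 at 327, Elane at 236, Mpo at 170 and Ctsg at 143, and Camp at 497, with 415 of the 621 Camp UMIs in 1 cell. Microglia-like cells of the same library, which should lack these genes, stood at 2.26 for Elane, 2.26 for Mpo and 36.9 for Camp. Primary levels in the basophil and monocyte classes were thus well above that of microglia, while Camp in basophil-like cells was not.

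UMIs of specific genes were also found in non-granulocytic cells, and in a larger share of them in the normal library. After thinning to 1000 UMIs, 13.4% (12.0 to 14.9) of its 2149 other cells had a UMI of a specific gene, against 0.362% and 0.584% in the tumour libraries. Unthinned, 10.0% of its other cells had a Camp UMI, against 0.303% and 0.874%. Leaving out monocyte-like and basophil-like cells, Camp, Ngp, Ltf and Lcn2 made up 29.1%, 31.7%, 10.4% and 17.1% of the 10 genes' UMIs in the other cells, and 30.5%, 39.8%, 10.9% and 12.4% in granulocytic cells of that library. Ngp took a smaller and Lcn2 a larger part in the other cells. The source of these UMIs was not tested.

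Lcn2 had single bright cells outside the neutrophils. In tumour 1, 367 of the 372 Lcn2 UMIs of astrocyte-like cells lay in 1 of 451 cells, and tumour 2 had 0 in 122 astrocyte-like cells. Endothelial-like cells held 28 and 189 Lcn2 UMIs in the tumour libraries, in 17.3% of 75 and 12.3% of 219 cells, with 116 of the 189 in 1 cell. In the normal library 8.28% of 145 endothelial-like cells had an Lcn2 UMI, beside 5.48% of its 730 microglia-like cells.

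**Figure D5:**
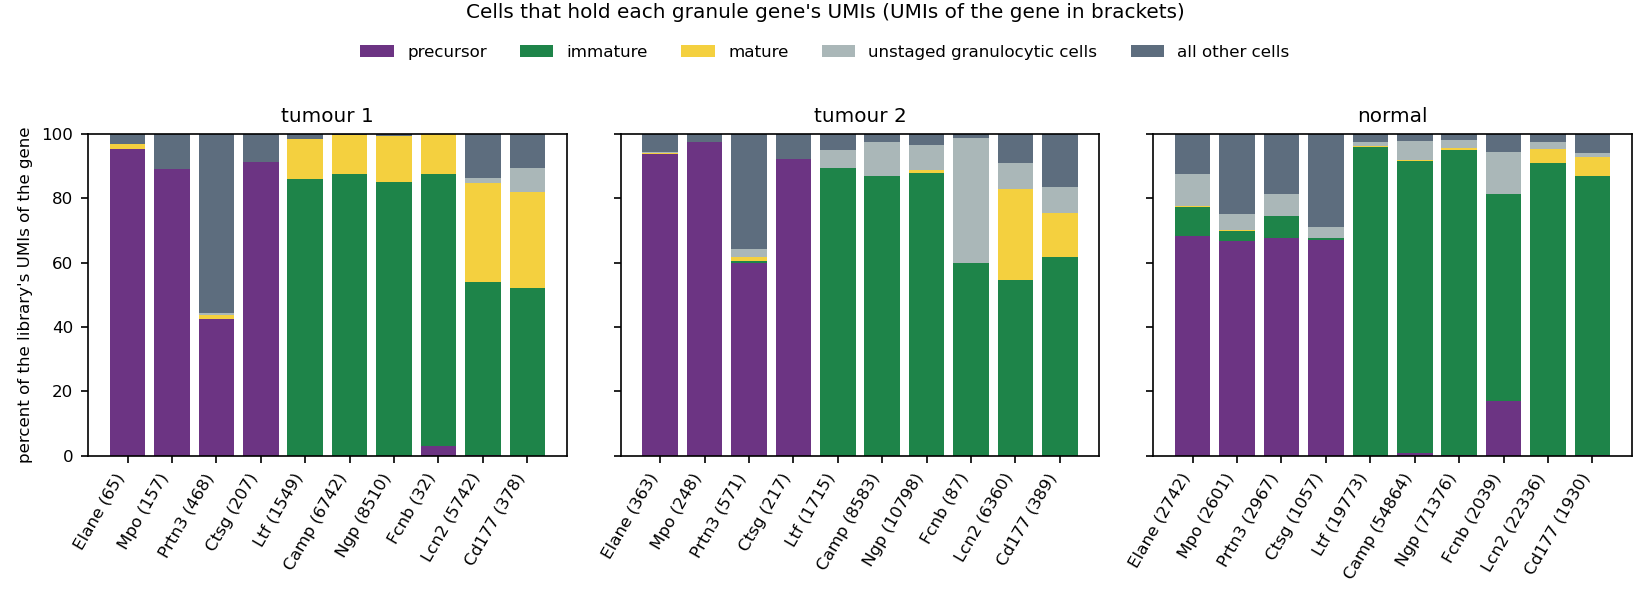
Percent of each gene's UMIs (total in brackets) that lay in precursor-like, immature-like, mature-like and unstaged granulocytic cells and in all other cells, by library. Most specific UMIs lie in immature-like cells, the primary UMIs of the tumour libraries in 2 precursor-like cells each, and Prtn3 stands out with 55.8% and 35.7% in other cells of the tumour libraries.

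Other genes of the granule program, from lists that share no gene with the 10, were read the same way. Their counts stand beside the shares of all genes that edgeR called lower and higher in tumour: 8.36% and 13.1% in whole-library sums, 7.6% and 8.38% in granulocytic, 4.11% and 4.6% in immature and 3.68% and 2.63% in mature cells. Of 6 further primary genes, 2 were lower in the tumour whole-library sums and 0 higher: Serpinb1a, a protease inhibitor (-5.24 ± 0.30), and Prss57, a serine protease (-4.00 ± 0.72). Lyz2, lysozyme, stood at 824 and 2258 against 4430 CPM and did not pass (-0.94 ± 0.68). In staged granulocytic cells 2 of the 5 tested were lower, Lyz2 (-2.58 ± 0.26) and Serpinb1a (-1.63 ± 0.32), and 1 was higher, Srgn, the granule proteoglycan serglycin (2.59 ± 0.32). Lyz2 was lower in immature (-1.16 ± 0.19) and mature cells (-3.07 ± 0.38) as well, the 1 gene of this list called in each.

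Of 8 further specific genes, 6 were lower in the whole-library sums, led by Mmp8, neutrophil collagenase (-6.20 ± 0.31), Chil3 (-4.90 ± 0.44) and Olfm4 (-4.46 ± 0.61). In immature cells 3 were lower and 3 higher. Olfm4 was lower (-1.89 ± 0.37), with 138 and 0 CPM in the tumour pair against 220. Its UMIs lay in 2 of 30 and 0 of 23 tumour cells and in 19 of 350 normal ones, so the call rests on few cells. Cyba, a subunit of the phagocyte oxidase (1.22 ± 0.25), and Hp, haptoglobin (1.08 ± 0.25), were higher. In mature cells Mmp8 (-3.56 ± 0.46) and Cybb, the catalytic oxidase subunit (-3.38 ± 0.63), were lower. Chil3 was higher there (3.74 ± 0.80, 3294 and 928 against 114 CPM). The 9 genes of gelatinase granules and secretory vesicles gave 4 lower calls and 0 higher in mature cells, among them the formyl peptide receptors Fpr1 (-2.29 ± 0.42) and Fpr2 (-2.18 ± 0.46). In immature cells Itgam alone was called (-0.76 ± 0.25), and Mmp9, gelatinase B, stood at 1352 and 1214 against 1291.

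Of 8 transcription factors known for granulocyte development, Cebpe, needed for specific granules, was lower in the tumour whole-library sums (-5.34 ± 0.47), as was Gfi1 (-5.13 ± 0.81). In staged granulocytic cells Gfi1 (-1.79 ± 0.54) and Cebpe (-1.29 ± 0.35) were lower and Cebpb was higher (2.57 ± 0.35). In immature cells 0 of 5 tested passed in edgeR's test, with Cebpe at 377.8 and 391.6 against 258.8 CPM, and in mature cells 0 of 7 passed, with Cebpb at 3126 and 2352 against 894.

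The genes whose levels were most like the mean of each group were read over 45 sums of at least 20 cells, from 19 classes in 3 libraries, as Pearson's r of log2(CPM + 10). For the primary group they were Ms4a3 (r = 0.89), Gm11505 (0.87), Hist1h2ah (0.86), Oosp1 (0.85) and Bex6 (0.84). Ms4a3 had 887 UMIs in those sums and the other 4 had 18 to 54, and Gm11505 is the antisense gene at Mpo. For the specific group they were Wfdc21 (0.94), Ifitm6 (0.93), S100a9 (0.91), S100a8 (0.90) and Chil3 (0.90). The 3 sums of a class share its cells' origin and library depth, so these values carry no test. Fcnb was the specific gene least like its own group (0.77), and the other 5 had 0.93 to 0.99.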

How the data were processed

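Single-cell libraries of 2 tumour-bearing brainstems and 1 normal brainstem were analysed from the UMI counts per gene and barcode that the authors deposited as filtered matrices. The file headers name Cell Ranger 6.1.2, and mm10 is named in the submitters' processing notes. Barcodes with at least 500 UMIs, 300 genes and at most 15% mitochondrial UMIs were kept, and called doublets (1.47% to 3.43%) removed. Cells were clustered (scanpy 1.11.5, leidenalg 0.10.2, resolution 1) and named from markers; granulocytic cells were clustered again without the granule genes, and the scoring rule for names was set after seeing clusters. Members and lists were chosen with earlier results of these data known. All 10 members are named, and of each other list the 3 largest called and 2 uncalled genes at most. Levels are CPM of a sum, with exact Poisson intervals; shares have exact Clopper-Pearson intervals; both are at 95% and, like the floor of 3 counts, cover counting error only. Levels are not compared between genes, as 3′ counts depend on the transcript end. Tumour was tested against normal with edgeR 4.0.16 (quasi-likelihood, TMM, low-count filter, Benjamini-Hochberg over all genes tested, threshold 0.05), where each library had at least 20 cells of the stage. Alternatives, DESeq2 1.42.0 included, are in the closing section. The test was checked on simulated counts. Promoter sequences are from RefSeq (GRCm38.p6) and gene positions from GENCODE's annotation.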

Additional observations from a re-analysis of the deposited data

How the results depend on the processing

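All 10 genes were lower in the whole-library sums under each alternative tested there. With library sizes alone, 3798 genes were lower and 1686 higher in that sum, with a member median of -6.56; the median of all genes moved from 0.14 to -0.42, and in mature cells from 0.14 to 0.60. Leaving out 1 tumour library gave member medians of -6.22 to -5.88 (whole library), -1.81 to -1.75 (granulocytic), -0.32 to -0.22 (immature) and -4.27 to 0.27 (mature, lowest without tumour 1), and values with no test. The immature medians among these include Elane and Prtn3, for which only a lower call was open. In granulocytic sums genes lower numbered 363 (library size), 133 (RLE), 110 (DESeq2), 438 (stricter cells) and 443 (doublets kept), and genes higher 1273, 173 and 255 under the first 3; the member median was -1.43 with library size and -2.23 with unstaged clusters counted in, when Ctsg passed too (-1.14, edgeR adjusted p = 0.0441). In immature cells members lower were 1 in DESeq2 (7 of 727 genes lower) and 0 without the cycling cluster (109 of 2225). Members higher were 1 with library size (167 of 3111 genes higher) and 1 with RLE (151 of 3111). Genes lower there were 79 (library size), 7 (DESeq2) and 81 (equal depth), genes higher 20 (DESeq2), 70 (no filter) and 93 (equal depth), and the member median -0.18 (library size), -0.41 (no filter), -0.60 (stricter cells) and -0.016 (without the cycling cluster). In mature cells doublets kept gave 4 members lower, with Ltf at -4.14 and Camp at -3.23. Genes lower there were 0 (RLE), 94 (DESeq2), 373 (no filter), 374 (equal depth), 582 (doublets kept), 7 (granule genes kept in clustering) and 616 (Siglecf-led cluster counted), and genes higher 634 (library size), 0 (RLE), 457, 297, 556, 0 and 494 (no filter, equal depth, doublets kept, granule genes kept, Siglecf-led cluster counted). At RLE, 1554 genes had an unadjusted p under 0.05 in edgeR. The number of mature cells reversed to 5.03 (edgeR adjusted p = 0.0133) with stricter cells, when 2 normal cells kept the name. Numbers left out in turn ran from -5.50 to -5.34 (precursor), -5.53 to -5.31 (immature) and -1.38 to -0.68 (mature). Thinned to 500 UMIs, 1.71% of normal immature cells had both groups. Unless a construction named here shows it, the cause was not tested. Counting unstaged clusters in, leaving out the cycling cluster and counting the Siglecf-led cluster were chosen after seeing the data. Mature cells under the stricter filter and immature cells with granule genes kept in clustering were not run, as a library had under 20 cells. No paired analysis was possible because the groups share fewer than 2 replicate numbers. The single normal library limits every comparison: its own variation cannot be measured.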
